A study of Mus musculus with 6 samples.

Results

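The acute-phase proteins described here are the products of 8 mouse genes, Saa1, Saa2, Saa3, Lcn2, Hp, Orm1, Orm2 and Cp, measured in spheres grown from mammary tumors. They were found by the RefSeq accession of their probes. Each had a single probe and each passed the filter on dim probes, so 8 of the 15838 genes tested are described. Cy3-labelled total RNA was measured on 6 single-colour arrays, 3 for spheres from FRS2beta knockout mice (knockout) and 3 for spheres from mice heterozygous for FRS2beta (hetero). The culture medium was the same for both genotypes, DMEM/F12 supplemented with B27, with 20 ng/mL each of EGF and bFGF and 2 mg/mL of heparin. The controls thus carry 1 disrupted copy of the gene and no wild-type spheres are among these samples. The labels give neither the age of the mice nor what drove the tumors. They also do not say whether the replicates came from separate animals, tumors or cultures, so the p-values rest on a spread between samples that may be technical only.

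Acute-phase proteins are secreted proteins whose production, chiefly by the liver, changes during inflammation. IL-6 family cytokines act on their genes through the receptor subunit gp130, JAK kinases and STAT3, and IL-1 and TNF act through NF-kB, with C/EBP factors binding many of the same promoters. Several are also made outside the liver: Saa3 and Lcn2 are known as local products of mouse epithelium, fat and macrophages, and Lcn2 and Hp are made in the mammary gland. Serum amyloid A proteins bind lipid and attract leukocytes, lipocalin 2 binds bacterial siderophores and so withholds iron, haptoglobin binds free hemoglobin, the orosomucoids carry drugs and lipids, and ceruloplasmin is a copper ferroxidase.

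The 8 genes split by direction, and the serum amyloid A family split within itself. Saa1 and Saa3 were lower in knockout spheres, 4.40-fold and 5.19-fold, while Saa2, Lcn2 and Hp were higher, 2.53-fold, 5.20-fold and 6.65-fold. Orm1 and Orm2 were above background in knockout spheres only. Cp was 1.20-fold lower, a direction that turned with another scaling.

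The stretches before the annotated starts of Saa1, Saa2, Saa3 and Lcn2 are shown because the first pair are near copies whose signals moved in opposite directions, while Saa3 and Lcn2 changed most, in opposite directions, among the members measured in both genotypes whose stretch was in the table. They are the 250 bases before each start, read 5′ to 3′ on the strand of the gene, from RefSeq on GRCm38.p6, at chr7:46742981-46743230 (minus strand) for Saa1, chr7:46751583-46751832 (plus strand) for Saa2, chr7:46715677-46715926 (minus strand) for Saa3 and chr2:32387740-32387989 (minus strand) for Lcn2. Capitals mark matches to the C/EBP-type pattern TTNNGNAA and the kappaB-type pattern on either strand.
Saa1: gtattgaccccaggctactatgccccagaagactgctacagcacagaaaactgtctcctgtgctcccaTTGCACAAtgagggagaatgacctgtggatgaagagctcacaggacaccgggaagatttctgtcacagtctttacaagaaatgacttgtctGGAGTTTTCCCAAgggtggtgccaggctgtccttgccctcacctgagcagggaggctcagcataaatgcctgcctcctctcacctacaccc
Saa2: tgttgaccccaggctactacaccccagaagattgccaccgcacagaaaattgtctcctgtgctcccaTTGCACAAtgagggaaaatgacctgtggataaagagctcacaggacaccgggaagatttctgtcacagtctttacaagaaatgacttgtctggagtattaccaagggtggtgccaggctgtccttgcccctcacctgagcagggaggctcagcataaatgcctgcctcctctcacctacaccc
Saa3: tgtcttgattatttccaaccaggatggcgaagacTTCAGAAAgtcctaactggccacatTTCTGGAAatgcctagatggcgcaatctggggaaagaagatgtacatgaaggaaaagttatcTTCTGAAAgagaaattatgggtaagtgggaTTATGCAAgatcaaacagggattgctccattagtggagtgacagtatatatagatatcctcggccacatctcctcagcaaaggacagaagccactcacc
Lcn2: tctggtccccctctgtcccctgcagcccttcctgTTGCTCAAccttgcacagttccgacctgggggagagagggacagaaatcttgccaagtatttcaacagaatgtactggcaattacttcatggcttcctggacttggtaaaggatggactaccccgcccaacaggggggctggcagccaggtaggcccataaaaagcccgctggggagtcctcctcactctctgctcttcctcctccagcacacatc

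The upstream stretches of Saa1 and Saa2 were 94.8% identical over 251 aligned columns, with 11 mismatches and 2 gap bases, against 52.2% for Saa1 and Saa3. Both share a C/EBP-type match, from 182 bases before the start in Saa1 and from 183 in Saa2. The kappaB-type pattern matched in Saa1 alone of the 6 genes that had a window, from 91 to 82 bases before its start, and it overlapped there with a second C/EBP-type match that Saa2 also lacked. Saa3 held 4 C/EBP-type matches and Lcn2 held 1. Of all 32851 windows of this length in the table, 36.8% held the C/EBP-type pattern, 4.63% the kappaB-type pattern and 7.02% the STAT3-type pattern TTCNNNGAA, which matched in none of the 6 members that had a window. These matches describe letters and not binding sites. The kappaB-type pattern was chosen after the windows had been read, so its match in Saa1 alone tests nothing, also beside its share of all windows.

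**Figure D1:**
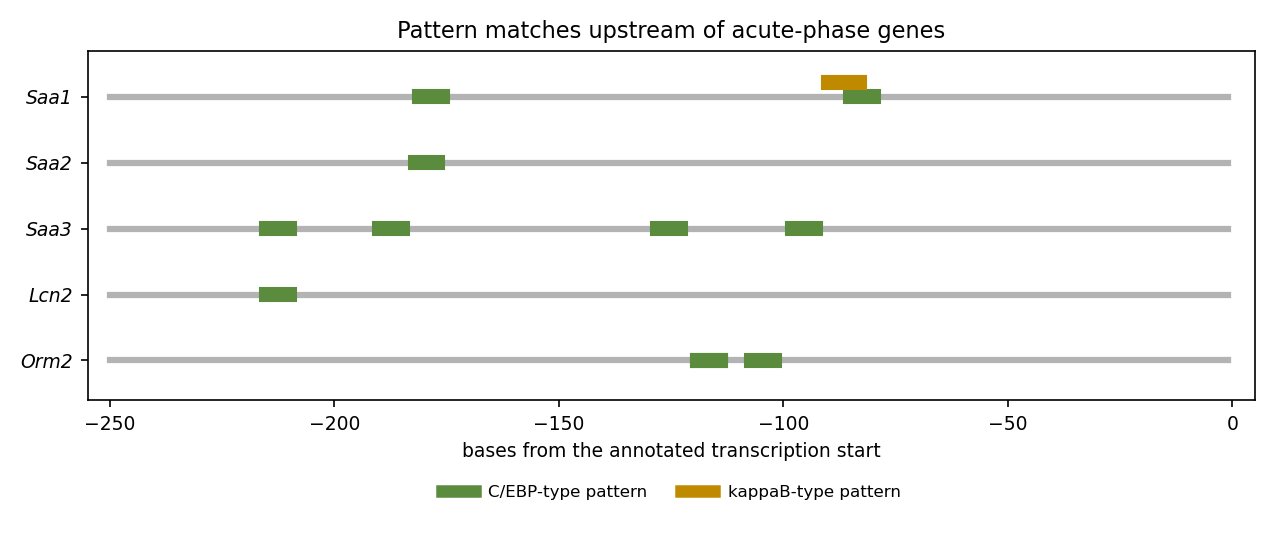
Matches to 2 sequence patterns in the 250 bases before the annotated start of Saa1, Saa2, Saa3, Lcn2 and Orm2, by distance from the start on the x axis in bases. Green boxes are C/EBP-type matches and yellow boxes kappaB-type matches. Saa3 has 4 green boxes, and the single yellow box lies over a green one in Saa1.

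Over all genes tested, 60.4% passed an adjusted p of 0.05 (limma, Benjamini-Hochberg adjustment), 27.8% higher and 32.6% lower in knockout spheres, with a median log2 difference of -0.03. Signals are given as scaled log2 signal, the log2 of the background-subtracted spot signal less that of the array's 75th percentile, so that 0 marks that percentile. Differences are knockout minus hetero, and each is set against the rest of its own array. The 75th percentile was 465 to 487 on knockout arrays and 404 to 416 on hetero arrays, no spot was saturated, and 3 arrays a group limit the precision. Scaling to spike-in RNA in place of the percentile adds 0.42 to every log2 difference. The targeted gene Frs3, which encodes FRS2beta, gave -7.88, -7.95 and -7.36 on the knockout arrays, against -7.30, -4.65 and -6.01 on the hetero arrays. It was above background on 0 of 3 knockout arrays and 1 of 3 hetero arrays, so it does not check the labels.

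All 8 acute-phase genes passed the threshold, 5 higher and 3 lower, and in all 8 the knockout and hetero arrays did not overlap, beside 68.9% of all genes. Orm1 and Orm2, both among the 5 higher, passed the filter through the knockout arrays alone, so their calls rest on hetero values not above background. With a fold of at least 2 also required, 7 of the 8 remained, 5 higher and 2 lower, beside 10.1% of all genes (6.59% higher and 3.52% lower). The median log2 difference of the 8 was 1.86, or 1.60 with Orm1 and Orm2 set against the hetero level described with those genes below. Under spike-in scaling 6 were higher and 2 lower, beside 72.5% of all genes higher and 7.95% lower.

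**Figure D2:**
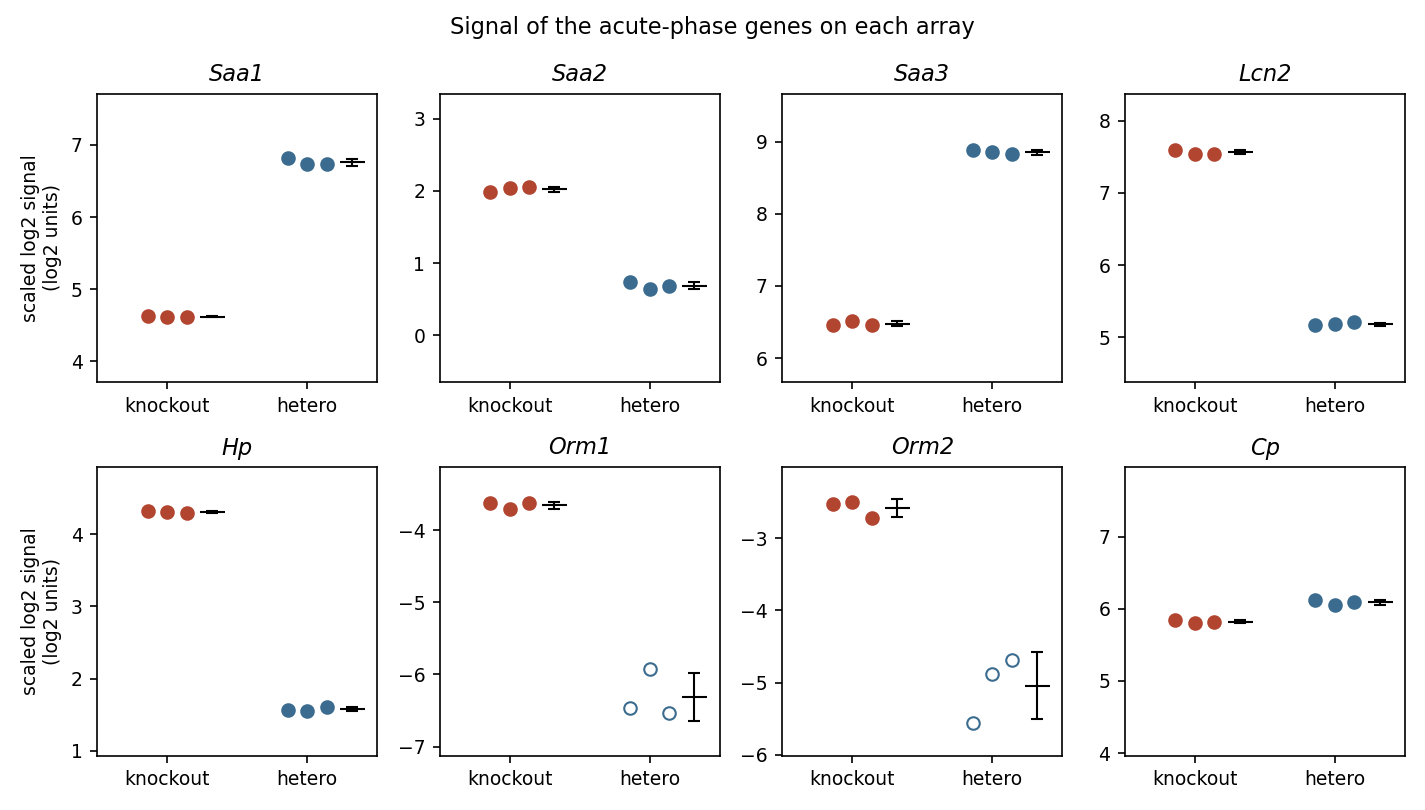
Scaled log2 signal of each acute-phase gene on each array, knockout (red) left of hetero (blue), with a black bar for the mean and SD of the 3 arrays. Open circles mark a group with no array well above background for that gene. Every panel spans at least 4 log2 units; Saa1, Saa3 and Cp are lower in knockout and the other genes higher.

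Saa1, an apolipoprotein of acute-phase high-density lipoprotein, is encoded on chromosome 7 and was measured by a probe to transcript NM_009117. Its scaled log2 signal was 4.63, 4.62 and 4.61 on the knockout arrays, against 6.81, 6.73 and 6.73 on the hetero arrays. All knockout arrays were thus low, with no overlap. The difference was -2.14 ± 0.03 (SE, limma adjusted p = 4.95e-07).

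Saa2, the neighbouring near copy on chromosome 7, was measured by a probe to NM_011314. It gave 1.98, 2.04 and 2.05 on the knockout arrays, against 0.74, 0.64 and 0.68 on the hetero arrays. Here the knockout arrays were the high ones, with a difference of 1.34 ± 0.04 (SE, limma adjusted p = 3.47e-06). RefSeq lists each of these 2 symbols as an older name of the other, so the directions belong to the accessions given. The probe sequences were not used here, and how well each probe separates the 2 transcripts was not tested.

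A constant shift of an array, as percentile and spike-in scaling apply, cancels when the changes of a pair are set against each other, while quantile scaling and normexp can move the difference. The change of Saa1 lay below that of Saa2 by 3.48 ± 0.03 log2 units (SE, n = 3 arrays a group), with p = 0.1 in a two-sided exact permutation test. This is the smallest p that 3 against 3 arrays allow, and it stayed 0.1 after adjustment over the 3 pairs compared. The difference was -3.37 with quantile scaling and -3.29 with normexp. Neither gene's direction turned under any setting tried.

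Saa3, the serum amyloid A form made mainly outside the liver in mice, had the largest fall of the 8. Its probe to NM_011315 gave 6.46, 6.52 and 6.45 on the knockout arrays, against 8.89, 8.85 and 8.82 on the hetero arrays. The groups stood far apart beside their spread, and the difference was -2.38 ± 0.03 (SE, limma adjusted p = 4.39e-07). Of all genes, 2.86% changed by at least as much in either direction. The change of Saa3 minus that of Saa1 was -0.24 ± 0.02 (SE, n = 3 a group, exact permutation p = 0.1), and -0.13 with quantile scaling and -0.14 with normexp. Saa4, a form that the liver makes constantly, lay near background, above it on 1 of 3 knockout arrays and 3 of 3 hetero arrays. It was called lower in knockout spheres (-0.81 ± 0.22, SE, limma adjusted p = 0.0244).

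Lcn2, encoded on chromosome 2, was higher in knockout spheres. It gave 7.60, 7.55 and 7.54 on the knockout arrays, against 5.16, 5.18 and 5.21 on the hetero arrays. The knockout arrays were all high, and the difference was 2.38 ± 0.03 (SE, limma adjusted p = 2.72e-07). Hp, encoded on chromosome 8, rose most among the members measured in both groups. Its signal was 4.32, 4.31 and 4.30 on the knockout arrays, against 1.56, 1.55 and 1.60 on the hetero arrays, a difference of 2.73 ± 0.02 (SE, limma adjusted p = 1.64e-07). Again every knockout array lay above every hetero array. The change of Hp minus that of Lcn2 was 0.36 ± 0.01 log2 units (SE, n = 3 a group, exact permutation p = 0.1), and 0.21 with quantile scaling and 0.16 with normexp.

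Orm1 and Orm2, neighbours on chromosome 4, were dim. Orm1 gave -3.63, -3.71 and -3.63 on the knockout arrays, against -6.47, -5.93 and -6.53 on the hetero arrays. Orm2 gave -2.53, -2.50 and -2.72 on the knockout arrays, against -5.56, -4.88 and -4.68 on the hetero arrays. Both were well above background on 3 of 3 knockout arrays and on 0 of 3 hetero arrays, so that their hetero values have no measured level. Each fold was therefore taken against a set hetero level. On each array this was the lowest signal counted as above background, or the gene's own signal where that was higher. Orm1 was 3.66-fold higher against this level (knockout mean -3.66, hetero mean -6.31, limma adjusted p = 8.77e-05). Orm2 exceeded that lowest signal on every hetero array without being counted as above background. A signal can thus lie above this level and still go uncounted, so folds taken against it are not lower bounds. The 5.50-fold rise of Orm2 is the fitted fold and also not a bound (knockout mean -2.58, hetero mean -5.04, limma adjusted p = 0.000466). Both genes passed the filter through the knockout arrays alone, so these p-values rest on hetero values with no measured level. With normexp background correction, which adds an offset of 50 to every signal, the log2 differences were 0.45 and 0.75. The orosomucoids are near copies as well, and how well their probes separate them was not tested.

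Cp, encoded on chromosome 3, hardly moved. It gave 5.84, 5.81 and 5.82 on the knockout arrays, against 6.12, 6.05 and 6.09 on the hetero arrays. The knockout arrays were lower without overlap, and the difference was -0.26 ± 0.03 (SE, limma adjusted p = 0.000611), a size reached by 42.8% of all genes. With spike-in scaling it was 0.15 ± 0.03 (adjusted p = 0.00687), so the direction of Cp depends on the scaling, while each of the other 7 kept its direction under every setting that tested it.

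**Figure D3:**
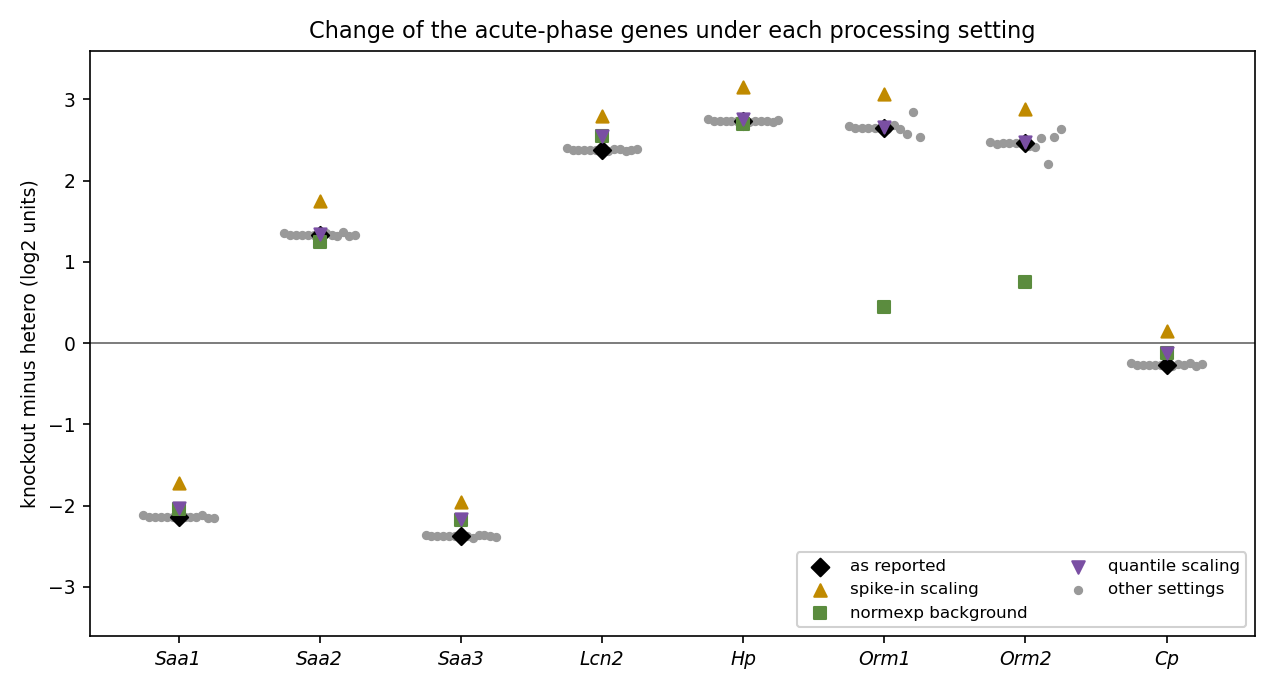
Log2 difference, knockout minus hetero, of each acute-phase gene as reported (black diamond), with spike-in scaling, normexp background correction and quantile scaling (coloured), and under the other processing settings (grey points). Saa1 and Saa3 stay between -2.40 and -1.72 and Hp and Lcn2 between 2.36 and 3.15, Cp crosses 0 with spike-in scaling, and the values of Orm1 and Orm2 drop to 0.45 and 0.75 with normexp.

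The arrays lay on 1 slide in 1 scan, with 2 arrays of each genotype in its first row and 1 of each in its second. Within the first and second row the difference was -2.38 and -2.37 for Saa3, -2.15 and -2.12 for Saa1, 2.40 and 2.34 for Lcn2 and 2.76 and 2.69 for Hp. The dim genes varied more, with 2.53 and 2.90 for Orm1 and 2.71 and 1.96 for Orm2. Each slide column held 1 genotype, so column and genotype cannot be told apart.

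Markers of other cells moved between the same arrays. Of all genes, 27.8% were higher and 32.6% lower, or 72.5% and 7.95% with spike-in scaling, and the counts below stand beside these shares. All 14 tested epithelial markers were higher in knockout spheres (median 3.39), among them Krt8, Krt7, Krt19 and Cldn7. Their summed scaled signal was 191 to 194 on knockout arrays and 21.9 to 22.2 on hetero arrays. Elf3 in this list was above background on 0 of 3 hetero arrays. With Elf3 set against the lowest signal counted as above background, the median was 3.32. All 14 tested macrophage markers were lower (median -1.45; 1 higher and 10 lower with spike-in scaling), among them Lyz2, Adgre1, C1qc and Tyrobp, with sums of 80.8 to 82.7 on knockout arrays and 111 to 116 on hetero arrays. Cd68 had no named probe. Cd163, also in that list, failed the filter and leaned the other way, above background on 2 of 3 knockout and 0 of 3 hetero arrays. Neutrophil markers rose in 4 of 8 and fell in 2 (Mmp9, S100a9 and S100a8 higher, Camp lower, and S100a9 above background on 1 of 3 hetero arrays), with sums of 82.6 to 85.5 on knockout arrays and 81.3 to 83.9 on hetero arrays. With spike-in scaling 6 were higher and 0 lower, and Camp was not called (-0.07, limma adjusted p = 0.16). Fibroblast markers fell in 10 of 12 and rose in 1 (Dpt, Pdgfra, Pi16 and Fbln1 lower; 3 higher and 6 lower with spike-in scaling), with sums of 2190 to 2257 on knockout arrays and 2845 to 3109 on hetero arrays. Adipocyte markers fell in 5 of 8 and rose in 0 (Lpl, Pparg, Fabp4 and Cd36 lower), with sums of 68.9 to 72.3 on knockout arrays and 154 to 159 on hetero arrays. With spike-in scaling 3 were higher and 2 lower, and both Fabp4 (0.15) and Cd36 (0.20) turned and were called higher. Hepatocyte markers fell in 2 of 6 and rose in 0 (Ahsg and Serpina1a lower), with sums of 1.17 to 1.25 on knockout arrays and 2.11 to 2.33 on hetero arrays, and Alb and Apoa1 were above background on no array. With spike-in scaling 2 hepatocyte markers were lower and 2 higher, Apoh (0.92, limma adjusted p = 0.0443) and Cyp2e1 (0.25, limma adjusted p = 0.0469), and normexp also called Apoh higher (0.11). Several sums follow their brightest gene. Itgam made up most of the macrophage sum, Csf3r most of the neutrophil sum and Lpl most of the adipocyte sum, and Ahsg was the largest part of the hepatocyte sum. In bulk RNA, fewer cells of a type and less RNA per cell cannot be told apart, and the part of these cell types in the acute-phase values was not tested.

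By the distance between centred signals over the 6 arrays, the genes most like Saa3 were Rac2, Mpeg1 and Plac8 (distances of 0.0880, 0.0961 and 0.0962 log2 units). Those most like Saa1 were Tnfsf11, Ccn5 and Ifi211 (0.0860 to 0.0896), and those most like Saa2 were Klrb1a, Ivl and Jaml (0.0640 to 0.0722). Wnt5b, St6galnac2 and Krt5 lay nearest to Lcn2 (0.0801 to 0.116) and Rasl12, Lurap1l and Pkp2 nearest to Hp (0.0827 to 0.123). For the dim genes the nearest were Foxj1, Nfatc2 and Kcnq3 for Orm1 (0.218 to 0.252) and Tenm2, Timd2 and Cracdl for Orm2 (0.417 to 0.464), where the distance includes hetero values below background. The distance reads mostly the size of the difference between the genotypes.

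Other proteins that rise in the acute phase were mostly lower or short of the threshold. Of 23 tested, 12 fell, 2 rose and 9 were not called, with a median of -0.38, beside -0.03 for all genes. Those that fell include Crp, above background on 0 of 3 knockout arrays, and the constantly made Saa4, above it on 1 of 3. Over all genes 32.6% fell and 27.8% rose. C3, the central complement component, fell by 2.77 ± 0.02 (SE), with 5.27 to 5.31 on knockout arrays and 8.05 to 8.07 on hetero arrays. The complement gene C4b fell by 3.06 ± 0.03, the lipopolysaccharide-binding protein Lbp by 1.74 ± 0.03 and the protease inhibitor Serpina3n by 1.48 ± 0.02. The 2 that rose, named after their values were seen, were the fibrinogen chain Fgg (1.66 ± 0.09) and the fibrinogen-like Fgl1. Against the lowest signal counted as above background on each hetero array, Fgl1 was 2.20-fold higher, which is not a lower bound. The Fgl1 probe used was above background on 0 of 3 hetero arrays and passed the filter through the knockout arrays alone. Another Fgl1 probe failed the filter and leaned the other way, with a difference of -1.58. That probe was above background on 0 of 3 knockout and 1 of 3 hetero arrays. With spike-in scaling 5 rose and 9 fell, with a median of 0.04, beside 72.5% of all genes higher and 7.95% lower. Among proteins that fall in the liver during the acute phase, Rbp4, the retinol carrier, fell by 1.48 ± 0.03 and Ahsg, or fetuin-A, by 1.28 ± 0.04, while Trf, transferrin, rose by 1.24 ± 0.02. The other 5 of these 8 genes, albumin among them, did not pass the filter. Albumin was above background on 0 of 3 knockout and 0 of 3 hetero arrays.

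The cytokines that induce acute-phase genes were called in both directions. Of 11 tested, 6 rose, 3 fell and 2 were not called (median 0.26, or 0.68 with spike-in scaling), beside 27.8% of all genes higher and 32.6% lower. Lif, a ligand acting through gp130, rose by 1.18 ± 0.05 (SE; 0.75 with normexp), Clcf1, another such ligand, by 0.62 ± 0.04 and Tnf by 0.45 ± 0.04, and Il18, an IL-1 family cytokine, fell by 1.34 ± 0.07. Il6, named after its values were seen, gave 0.74, 0.72 and 0.74 on the knockout arrays, against 0.72, 0.75 and 0.70 on the hetero arrays. Its groups overlapped (difference 0.01 ± 0.02, limma adjusted p = 0.644). Il1b, also named afterwards, was 3.04-fold lower (limma adjusted p = 0.000424) and was dim, above background on 2 of 3 knockout arrays.

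Receptors for these cytokines were mostly lower. Of 17 receptors and JAK kinases tested, 14 fell, 1 rose and 2 were not called, with a median of -0.55 (5 higher and 9 lower with spike-in scaling, median -0.13). Over all genes 32.6% fell and 27.8% rose, or 7.95% and 72.5% with spike-in scaling. Il1r1, the signalling IL-1 receptor, gave 3.34, 3.40 and 3.39 on knockout arrays, against 5.11, 5.08 and 5.05 on hetero arrays, a fall of 1.70 ± 0.03 (SE). The decoy receptor Il1r2 fell by 1.86 ± 0.03, the LIF receptor Lifr by 1.24 ± 0.03 and gp130, encoded by Il6st, by 0.95 ± 0.02 (0.54 with spike-in scaling).

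Transcription factors and feedback genes of these pathways split, with 5 of 18 higher and 9 lower (median -0.09, against 12 higher and 3 lower with spike-in scaling). Over all genes 27.8% were higher and 32.6% lower, or 72.5% and 7.95% with spike-in scaling, so the share called higher was near that of all genes. Elf3, an epithelial ETS factor that is also in the epithelial list, stood above background on 0 of 3 hetero arrays. Against the lowest signal counted as above background on each hetero array, Elf3 was 3.74-fold higher, which is not a lower bound. Normexp gave it a log2 difference of 0.51. Cebpd, a C/EBP factor induced in inflammation, fell by 0.82 ± 0.03, the STAT3 target and feedback inhibitor Socs3 by 0.93 ± 0.03, and Bcl3, an NF-kB cofactor, by 0.68 ± 0.04 (SE). These falls were 0.40, 0.51 and 0.26 with spike-in scaling.

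Receptors and partners of the acute-phase proteins fell in 7 of 11 tested and rose in 2 (median -0.22, but 8 higher and 1 lower with spike-in scaling). Beside these and the iron genes below, 32.6% of all genes fell and 27.8% rose, or 7.95% and 72.5% with spike-in scaling. Fpr2, a receptor through which serum amyloid A attracts leukocytes, fell by 2.70 ± 0.18 (1.24 with normexp), and Tlr2, another serum amyloid A receptor, by 0.28 ± 0.02, a sign that turned with spike-in scaling (0.14). Mmp9, the protease that lipocalin 2 binds, rose by 0.47 ± 0.02. Lrp1, an uptake receptor for several ligands, differed by -0.37 ± 0.02, and by 0.05 with spike-in scaling (limma adjusted p = 0.12). Of genes that handle iron, 8 of 13 fell and 3 rose (median -0.41, against 5 lower and 6 higher with spike-in scaling). Ltf, the iron-binding milk protein lactoferrin, rose by 4.80 ± 0.14 (SE), while the iron exporter Slc40a1 was 2.01-fold lower, the ferrireductase Steap3 fell by 0.98 ± 0.02 and Bdh2, which is tied to a mammalian siderophore, by 0.95 ± 0.04.

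**Figure D4:**
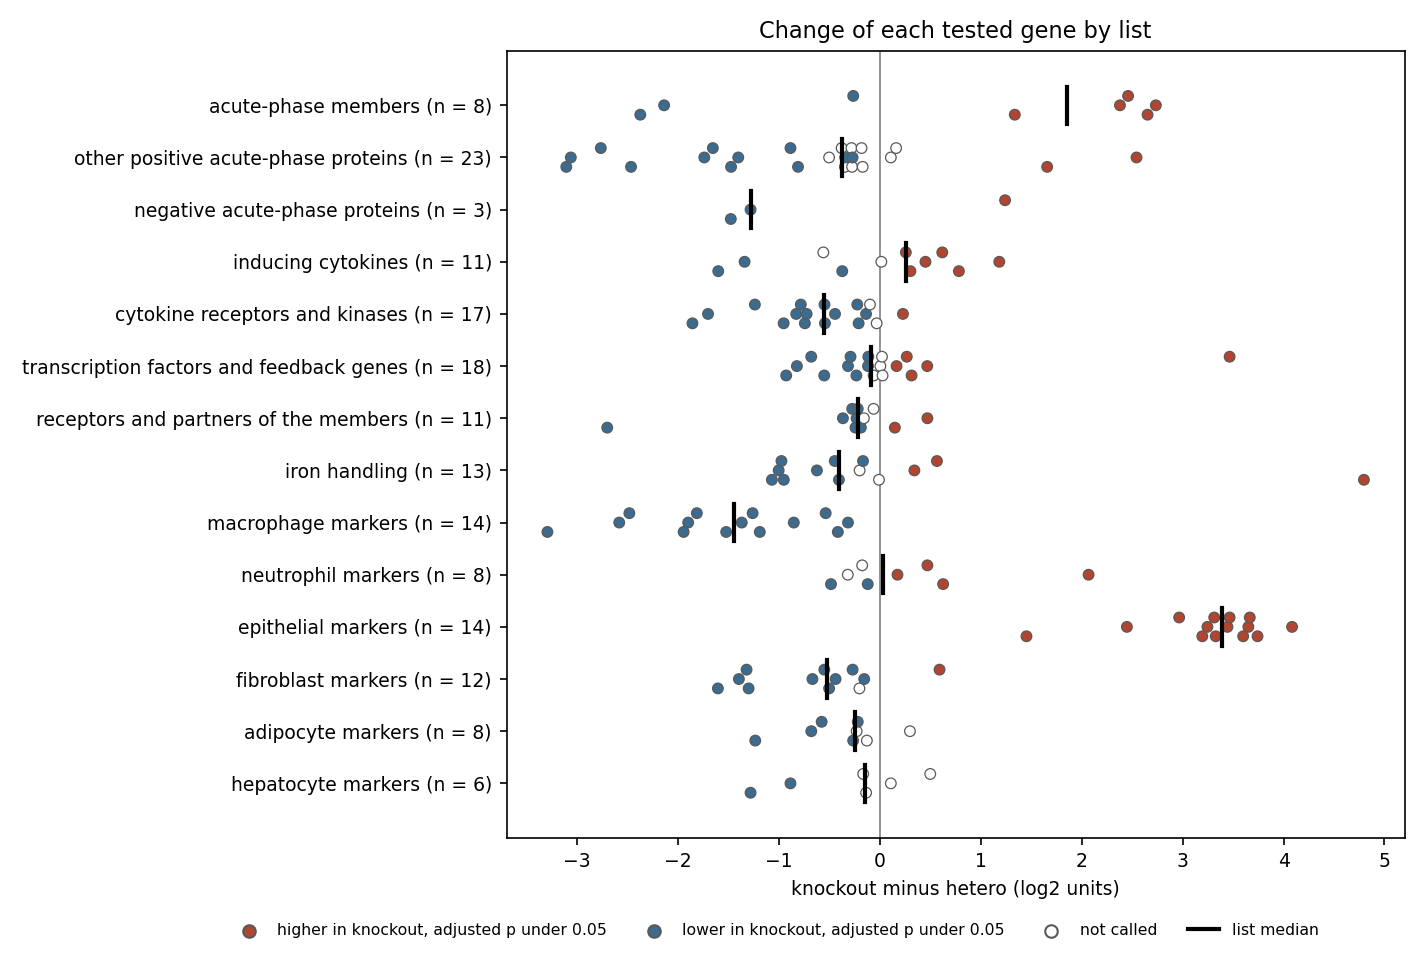
Log2 difference, knockout minus hetero, of every tested gene in the acute-phase set and in 13 lists of related genes and cell type markers, 1 point a gene, with a black bar for each list's median. Red points were called higher, blue points lower, and open points were not called. Epithelial markers all lie to the right of 0 and macrophage markers all to the left, though with spike-in scaling 1 macrophage marker was called higher and 10 lower.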

How the data were processed

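Total RNA of 3 knockout and 3 hetero samples was measured on single-colour Agilent arrays, read with Agilent's Feature Extraction, version 10.7.3.1 (named in the submitters' processing notes). The deposited spot intensity used here is the processed signal, which Feature Extraction had background-subtracted and detrended per the file headers, on a linear scale with no scaling between arrays. The deposited table of 46598 probes holds the same intensities divided by a constant for each array (402 to 484), equal within 1% for 100% of single-spot probes. Its linear scale and direction follow from this match, it is not centred by gene, and its column medians were 0.163, 0.159 and 0.159 for knockout and 0.161, 0.159 and 0.169 for hetero replicates 1 to 3.

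Control spots (3671 of 62976) and spots with outlier flags (102 to 129 an array) were left out. The log2 signal was scaled by subtracting each array's 75th percentile. Probes were named by RefSeq accession with the GRCm38.p6 gene table, which gave 27220 of 55681 probes a symbol. Probes well above background on at least 3 of 6 arrays were kept, with the brightest kept probe standing for its gene, 15838 genes in all. The genotypes were compared in R 4.3.3 by limma 3.58.1 (lmFit, then eBayes), without covariates, p-values were adjusted over all genes tested, and the fit was tested on simulated data. Pairs of members were compared by exact permutation tests (SciPy 1.17.1). Motifs and alignments were computed in Python 3.11.15 with Biopython 1.88.

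The members and all gene lists were chosen with earlier results of these data known. Genes were named by rule: the 8 members and Frs3, in each list up to 4 tested genes with the smallest p, and for each member called with a fold of at least 2 the 3 genes nearest over the 6 arrays. Of 189 listed genes, 160 were tested. Alternatives covered scaling, background correction, the filter, probe choice, the deposited table, blocks and left-out arrays. Normexp was run on the median spot signal, with the local median background, an offset of 50 and quantile scaling, in place of the mean signal that had been planned. The labels do not say whether replicate numbers pair the samples, and the main fit did not pair them. Deviations of same-numbered arrays correlated at -0.115, -0.018 and -0.006, which with 3 arrays a group cannot decide this.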

Additional observations from a re-analysis of the deposited data

Results flagged for a closer look

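Orm3, the third orosomucoid gene, was left out of the tests because its probe was above background on 2 of 3 knockout and 0 of 3 hetero arrays. Its scaled log2 signal was -4.69, -5.30 and -6.40 on the knockout arrays, against -7.23, -7.24 and -7.03 on the hetero arrays, with means 1.70 apart (knockout minus hetero) and no test. Dixon's check for a sample far from its group was not run, since groups of 3 are too small for it.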

How the results depend on the processing

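All 8 acute-phase genes passed the threshold in every refit that held them, 16 settings each for 6 of them and 15 each for Orm1 and Orm2, and 7 of the 8 kept their direction in all of these. Cp turned with spike-in scaling (0.15). Spike-in scaling gave 11490 genes higher and 1259 lower over all genes, and 44 higher and 31 lower among the genes of the 7 pathway lists. Requiring signal above background on all 6 arrays left Orm1 and Orm2 untested and 3 members higher. Leaving out 1 array at a time moved Saa3 between -2.40 and -2.36, Saa1 between -2.15 and -2.11, Lcn2 between 2.36 and 2.39 and Hp between 2.72 and 2.75, but Orm2 between 2.20 and 2.64. With replicate numbers as a block, though the labels do not say that they pair the samples, 3932 genes were higher and 4579 lower. No member lost its call (limma adjusted p of at most 0.00591, for Orm2). Normexp shrinks dim genes by construction, which limits what can be said of Orm1 and Orm2. Of 26 counts of higher or lower genes over the 13 related lists, 16 moved by more than 1.5 times with spike-in scaling and at most 2 in any other setting.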

Other observations

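Cd163, the scavenger receptor that takes up haptoglobin bound to hemoglobin, is also in the macrophage list. It did not pass the filter and was uneven within knockout spheres. Its scaled log2 signal was -3.26, -7.92 and -2.53 on the knockout arrays, against -7.28, -7.32 and -7.10 on the hetero arrays, and it was above background on 2 of 3 knockout and 0 of 3 hetero arrays. Crp, C-reactive protein, was the reverse, above background on 0 of 3 knockout and 3 of 3 hetero arrays. It was 2.78-fold lower in knockout spheres (limma adjusted p = 0.0011). This fold is set against the lowest signal counted as above background on each knockout array and is not a lower bound. Crp passed the filter through the hetero arrays alone, so this p rests on knockout values with no measured level. Cd163 and Crp were both named after their values were seen.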
